A study of Mus musculus with 12 samples.

Results

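Genes of protein folding and of the unfolded protein response in the endoplasmic reticulum (ER) were examined in CT26 cells, a mouse colon carcinoma line, under starvation and chemotherapy. The 37 genes were a fixed list of symbols, chosen with earlier results of these data known. Of these, 36 were measured among the 17097 genes of the arrays, each by its single-symbol probe set with the highest mean over all arrays, and Nucb2 was not analysed here. By role they were 11 chaperones and co-chaperones, 10 disulfide enzymes, 8 genes of ER-associated degradation, 4 stress sensors and transcription factors, and 3 genes of protein translocation. The role of disulfide enzymes was taken broadly and includes relatives such as Erp29, which has no redox activity. Control (CTR) cells were kept for 48 hours at 1 g/L glucose and 10% serum. Cells under short-term starvation (STS) received 0.5 g/L glucose and 1% serum over the same time, so that the effects of glucose and of serum cannot be told apart, and the labels also name a different base medium for the serum restriction. Cells of the oxaliplatin (OXP) group were kept in control medium and given the platinum drug, which crosslinks DNA, at 10 µM after 24 hours according to the labels, whereas legends of the study give other doses. The STS+OXP group received the drug in the starvation medium. Each group held 3 arrays of a single cell line in culture, and no source says whether they came from separate cultures, so p-values may measure technical spread only.

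The ER is where secreted and membrane proteins are folded, glycosylated and joined by disulfide bonds. When unfolded proteins accumulate there, the sensors IRE1 (Ern1), PERK (Eif2ak3) and ATF6 (Atf6) are released from the chaperone BiP (Hspa5) and activated. IRE1 then splices the mRNA of the transcription factor XBP1, ATF6 is cut to an active fragment, and PERK slows translation and raises ATF4. Both XBP1 and ATF6 bind ER stress elements in the promoters of chaperone and degradation genes. The arrays report mRNA abundance only, and neither splicing nor cleavage nor phosphorylation of these factors was measured.

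Promoter stretches of 8 of the 11 members that held an ER stress element are shown first, since they are the sequences through which this response is known to act. RefSeq windows from 250 bases before to 50 bases after a start site (GRCm38.p6) were used for 29 of the 36 measured genes. The element ERSE was searched as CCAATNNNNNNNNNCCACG, ERSE-II as ATTGGNCCACG and UPRE as TGACGTGG, each on both strands. Capitals mark the element, lower case its surroundings, and each stretch reads 5′ to 3′ on the strand of its gene. In Creld2 and Derl3 the element lay on the opposite strand, so that it appears with CGTGG first.
Hspa5 (chr2:34771995-34772073, + strand): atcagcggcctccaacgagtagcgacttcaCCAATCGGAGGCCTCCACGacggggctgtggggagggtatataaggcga
Dnajc3 (chr14:118937797-118937875, + strand): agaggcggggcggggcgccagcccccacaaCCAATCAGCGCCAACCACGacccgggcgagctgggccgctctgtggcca
Pdia6 (chr12:17266461-17266539, + strand): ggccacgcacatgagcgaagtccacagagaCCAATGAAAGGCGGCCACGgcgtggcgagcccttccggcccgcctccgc
Creld2 (chr15:88819490-88819568, + strand): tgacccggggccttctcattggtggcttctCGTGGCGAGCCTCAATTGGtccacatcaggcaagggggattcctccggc
Syvn1 (chr19:6046502-6046575, + strand): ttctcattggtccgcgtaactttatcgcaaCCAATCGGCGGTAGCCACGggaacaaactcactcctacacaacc
Herpud1 (chr8:94386347-94386417, + strand): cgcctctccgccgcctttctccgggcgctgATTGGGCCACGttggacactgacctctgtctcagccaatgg
Canx (chr11:50325770-50325848, - strand): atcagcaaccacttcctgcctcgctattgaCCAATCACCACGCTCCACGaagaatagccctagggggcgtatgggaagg
Derl3 (chr10:75893212-75893290, + strand): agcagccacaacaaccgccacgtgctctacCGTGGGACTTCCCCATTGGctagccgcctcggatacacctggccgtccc

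An exact ERSE was found in 9 of the 29 genes (Calr, Canx, Creld2, Derl3, Dnajc3, Hsp90b1, Hspa5, Pdia6 and Syvn1) and an ERSE-II in 2 (Dnajb11 and Herpud1). Over all windows of the table outside chromosome 18, 39 of 32851 (0.119%) held an ERSE and 12 (0.0365%) an ERSE-II. Either element was thus present in 11 of 29 listed genes (37.9%) and in 49 of 27025 genes with a window (0.181%). These shares were not tested, as ER stress elements are known from promoters of chaperone and degradation genes. The UPRE letters were present in 2 of the 29, Txndc5 and Txndc11, and in 0.714% of the genes with a window. Allowing 1 mismatch to the ERSE letters gave 15 of the 29 genes, Sel1l, Pdia4, Derl2 and Erp44 among them, and 1.72% of the genes with a window. A match is a description of the letters in the window and was not tested as a binding site.

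Some arrays stood apart and touch the results below. On OXP replicate 1 the 3′ control set of Gapdh was brighter than the 5′ one by 3.85 (log2), a difference that lay between -0.12 and 0.28 on all other arrays. OXP replicate 2 differed less from the STS+OXP arrays (root mean square difference over genes 0.144 to 0.205, log2) than from OXP replicates 1 and 3 (0.345 and 0.251). OXP replicate 3 was also no farther from the STS+OXP arrays (0.237 to 0.251) than from OXP replicates 1 and 2 (0.297 and 0.251). For OXP replicate 1 the differences from the STS+OXP arrays were 0.334 to 0.356. The highest of 22 control probe sets on an array lay between 3.21 and 3.72 (log2). A group mean at or below the highest such value of the arrays of its group was taken as background. By this rule 34 of the 36 genes were above background in all 4 groups. The exceptions were Pdia3, represented by a single dim probe set, and Derl3, although both exceeded the control sets on some single arrays. Of the markers of the labelled cell type, Epcam, Krt20 and Cdx2 were above background in all groups, while Cdh1, Krt18, Krt19 and Vil1 were not in any. Markers of other cells were at background in all groups for 4 of 5 endothelial, 3 of 5 lymphocyte and 3 of 6 macrophage genes, Ptprc, Pecam1 and Cdh5 included. Of the mesenchymal genes 7 of 7 were above it in at least 1 group, Acta2 in only 1 of the 4 groups. The mean of the macrophage list lay between 3.65 and 3.79 on the CTR arrays and between 3.80 and 4.34 on the OXP arrays. In that list Cd14 (mean 7.02 in CTR and 8.19 in OXP) and Cd68 (2.94 and 4.41) were called higher with OXP, and the other 4 genes were not called. The mean of the mesenchymal list lay between 6.55 and 6.70 on the CTR and between 7.08 and 7.18 on the STS arrays. The part of either list in the results was not tested. As RNA was taken from all cells of a culture, a change in some of the cells cannot be told apart from a smaller change in all.

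Most of the ER folding genes were lower under starvation and under oxaliplatin, and under both together they stood below the controls by about as much as under either alone. Relative to CTR, 27 of the 36 genes were lower in STS-treated cells, 30 in OXP-treated cells and 26 in STS+OXP-treated cells, at a Benjamini-Hochberg adjusted p under 0.05 in limma over all 17097 genes. Over all genes 6.74%, 13.9% and 14.2% were lower in the same comparisons. As the list was chosen with earlier results of these data known, these shares are given beside it without a test. Only 1 listed gene was higher in each comparison, Sil1 with STS and Ern1 with OXP and with STS+OXP, where 9.75%, 17.5% and 16.4% of all genes were higher. Without OXP replicate 1 the counts of lower genes were 29, 30 and 27, and without OXP replicate 2 they were 27, 29 and 26. The median log2 fold change of the 36 genes was -0.68 with STS, -0.72 with OXP and -0.65 with STS+OXP, against medians of -0.03, -0.01 and 0.00 over all genes. In all 3 comparisons 22 of the 36 genes were lower, against 700 of 17097 genes (4.09%), and 4 were lower in none, namely Pdia3, Derl3, Edem2 and Ern1. Without OXP replicate 1, Edem2 was lower with STS. The comparisons share the CTR arrays and are given side by side.

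**Figure D1:**
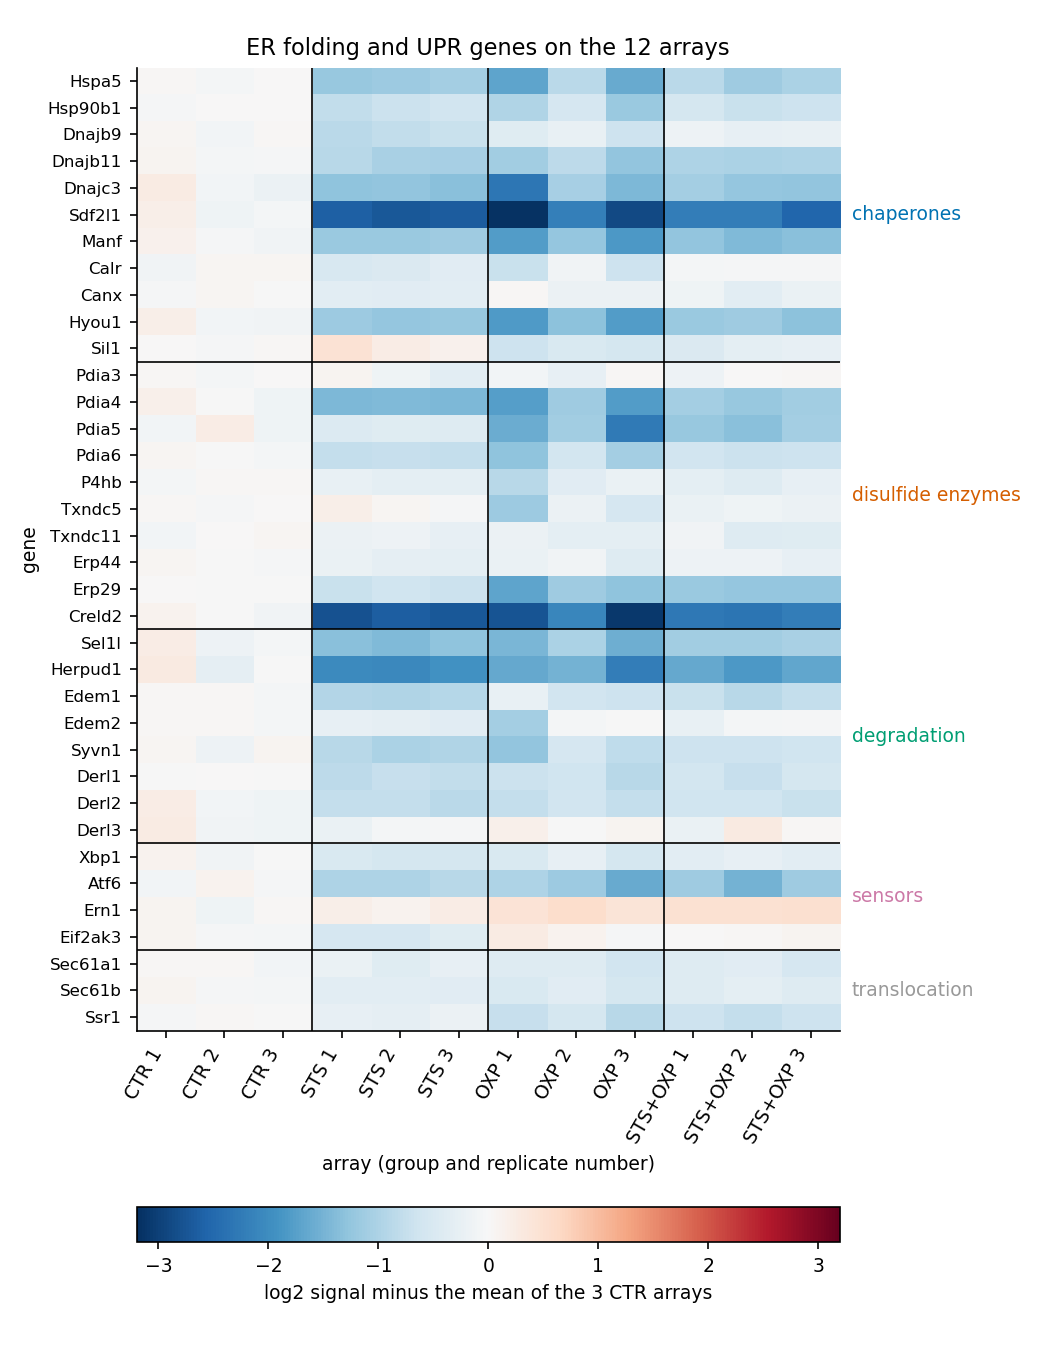
Heat map of the 36 measured genes (rows, grouped by role) on the 12 arrays (columns), coloured by the log2 signal minus the mean of the 3 CTR arrays of the same gene, blue for lower and red for higher. Sdf2l1, Creld2 and Herpud1 were the darkest rows over the STS and STS+OXP arrays, and the median of the 36 genes on OXP replicate 2 (-0.56) was less low than on OXP replicates 1 and 3 (-0.93 and -0.79).

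By array, the median of the 36 genes relative to the CTR mean lay at -0.73, -0.66 and -0.64 on the STS arrays. On the OXP arrays it was -0.93, -0.56 and -0.79, and on the STS+OXP arrays -0.60, -0.68 and -0.65. All 9 treated arrays were thus below the 3 CTR arrays, which lay between -0.03 and 0.05, while the OXP arrays spread more widely than the others.

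The chaperones were the role with the lowest median in each of the 3 comparisons. Of the 11, 10 were lower with STS, 10 with OXP and 9 with STS+OXP, with medians of -0.998, -1.08 and -0.996.

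Hspa5 encodes BiP, the Hsp70 chaperone of the ER and the partner that holds the sensors inactive. The log2 signal of Hspa5 was 12.02, 11.93 and 12.001 on the CTR arrays, 10.76, 10.81 and 10.88 on the STS arrays, 10.30, 11.11 and 10.37 on the OXP arrays and 11.13, 10.85 and 10.97 on the STS+OXP arrays. All treated arrays were below all CTR arrays, and the treated groups overlapped. The log2 fold change against CTR was -1.16 with STS, -1.39 with OXP and -1.002 with STS+OXP (standard error 0.163; adjusted p = 0.000238, 1.36e-05 and 0.000255 in limma). Its level with STS was thus 44.7% of that of CTR, and with OXP 38.1%.

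Sdf2l1, a partner of the ER co-chaperone ERdj3, showed the lowest log2 fold change among the chaperones. On the 3 CTR arrays Sdf2l1 measured 9.43, 9.11 and 9.19 (log2 signal), with 6.63, 6.54 and 6.58 under STS, 6.09, 7.06 and 6.36 under OXP and 7.03, 7.03 and 6.71 under STS+OXP. None of the treated arrays came near the CTR arrays, and OXP replicate 2 lay with the STS+OXP arrays, above the other OXP arrays. Sdf2l1 fell to 15.8% of CTR with STS (-2.66, standard error 0.188), to 14.9% with OXP (-2.74) and to 19.98% with STS+OXP (-2.32), with adjusted p from 8.73e-08 to 4.89e-07 in limma.

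Hyou1 is a large Hsp70-like protein that exchanges the nucleotide of BiP. Hyou1 had log2 signals of 9.63, 9.35 and 9.34 in the CTR group, 8.28, 8.19 and 8.23 in the STS group, 7.63, 8.13 and 7.65 in the OXP group and 8.24, 8.30 and 8.13 in the STS+OXP group. The treated arrays did not overlap with CTR (log2 fold changes -1.20, -1.64 and -1.22 with STS, OXP and STS+OXP, standard error 0.123). Manf, a BiP-binding protein that can be secreted, was also lower in all treated groups. The CTR arrays gave 11.21, 11.04 and 10.95 for Manf (log2 signal), the STS arrays 9.88, 9.89 and 9.93, the OXP arrays 9.27, 9.83 and 9.24 and the STS+OXP arrays 9.81, 9.65 and 9.74. The STS+OXP arrays lay below the STS arrays but the difference did not pass (-0.17, adjusted p = 0.451 in limma), while all 3 comparisons with CTR did (-1.17, -1.62 and -1.33).

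Dnajc3 encodes a co-chaperone of BiP that also inhibits PERK. For Dnajc3 the arrays gave 9.71, 9.38 and 9.28 (log2 signal, CTR), 8.17, 8.19 and 8.11 (STS), 7.15, 8.40 and 8.01 (OXP) and 8.36, 8.22 and 8.20 (STS+OXP). OXP replicate 1 was the lowest array by a wide margin, and the CTR arrays lay above all others. The log2 fold changes were -1.30, -1.60 and -1.20 (standard error 0.226), each passing the test (adjusted p = 0.00128, 7.72e-05 and 0.000871 in limma).

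Among the remaining chaperones, Dnajb11 (ERdj3), a co-chaperone of BiP, changed by -0.998, -1.08 and -0.996 on the log2 scale with STS, OXP and STS+OXP, and Hsp90b1, the Hsp90 of the ER, by -0.69, -0.90 and -0.64, and all 6 values passed the test. Dnajb9 (ERdj4), another co-chaperone, was lower with STS (-0.80) and with OXP (-0.43), and with STS+OXP the value of -0.21 did not pass (adjusted p = 0.125 in limma). The lectin chaperones Calr and Canx hold glycoproteins during folding. Calr was lower with STS (-0.45) and OXP (-0.50) but stood at -0.05 with STS+OXP, and Canx was lower with STS (-0.35) and STS+OXP (-0.23, adjusted p = 0.0498 in limma), not with OXP (-0.11). A second probe set of Canx gave -0.60, -0.43 and -0.63 with STS, OXP and STS+OXP. Sil1, which like Hyou1 exchanges the nucleotide of BiP, was the one chaperone that was higher with STS (0.28, adjusted p = 0.0449 in limma), a call that was lost without any 1 of 8 of the 12 arrays, and it was lower with OXP (-0.57) and STS+OXP (-0.34).

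**Figure D2:**
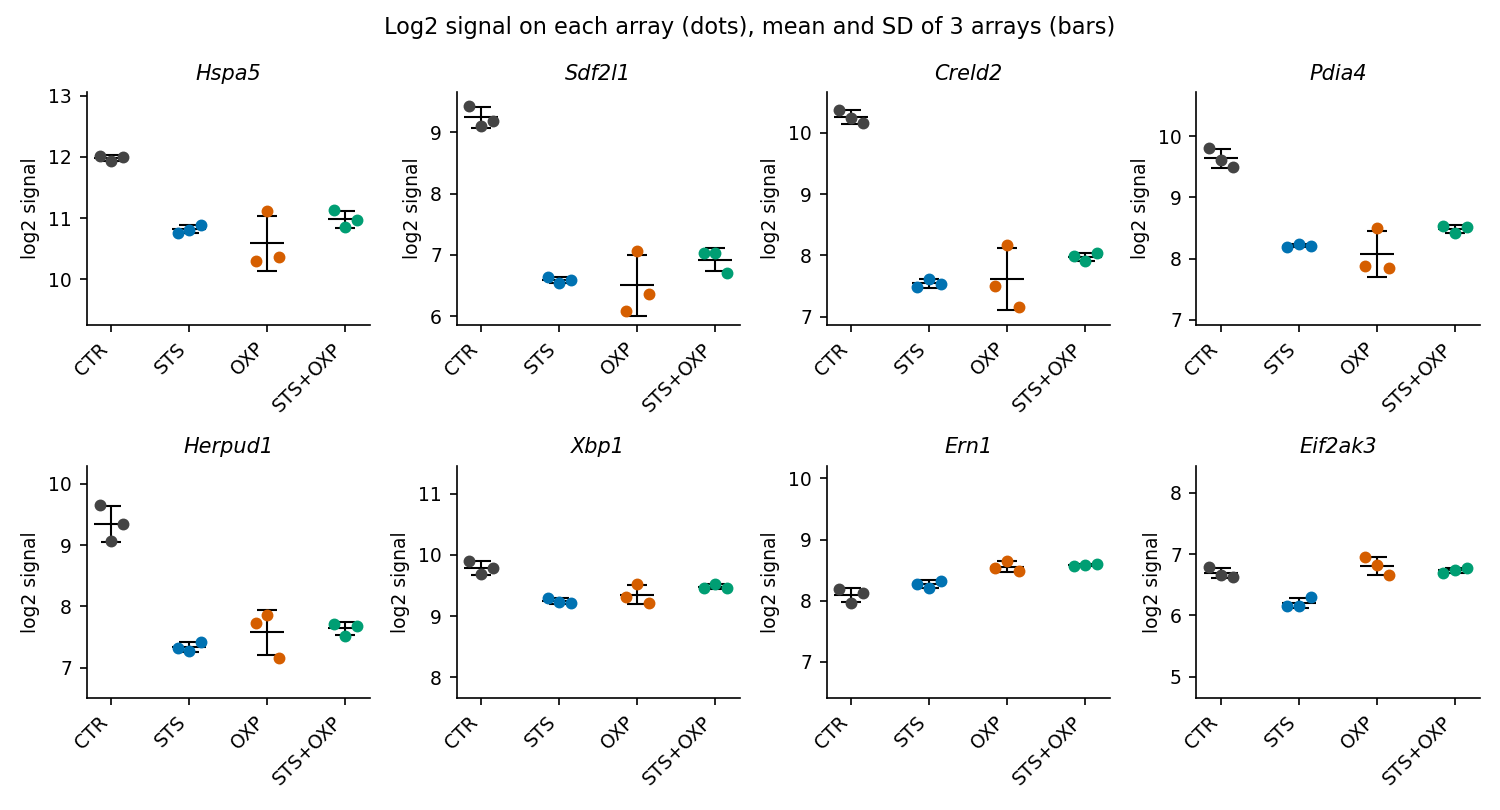
Log2 signal of 8 genes on each array (dots, by group) with the mean and SD of the 3 arrays of a group (bars). All panels span the same number of log2 units. Hspa5, Sdf2l1, Creld2, Pdia4 and Herpud1 were lower in all 9 treated arrays than in CTR, Ern1 was higher with OXP and STS+OXP, and Eif2ak3 was lower with STS alone. Each panel shows the probe set used, and other probe sets of Ern1 differed in direction.

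Of the 10 disulfide enzymes, 5 were lower with STS, 9 with OXP and 6 with STS+OXP, where 6.74%, 13.9% and 14.2% of all genes were lower. Without OXP replicate 1, P4hb was lower with STS and STS+OXP too. The medians of the 10 were -0.35 with STS, -0.81 with OXP and -0.49 with STS+OXP. The difference between the counts was not tested.

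Creld2, an ER stress-inducible protein with isomerase activity, fell about as far as Sdf2l1. The log2 signal of Creld2 was 10.37, 10.25 and 10.16 on the CTR arrays, 7.47, 7.61 and 7.54 on the STS arrays, 7.51, 8.17 and 7.16 on the OXP arrays and 7.98, 7.91 and 8.04 on the STS+OXP arrays. The STS and STS+OXP arrays did not overlap, with STS lower, but the difference did not pass (0.44, adjusted p = 0.108 in limma). The OXP arrays spread across both. Its level was 15.2% of CTR with STS (-2.72, standard error 0.179), 15.96% with OXP (-2.65) and 20.6% with STS+OXP (-2.28), with adjusted p of 2.55e-07, 7.92e-08 and 3.28e-07 in limma.

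Pdia4 and Pdia6 encode protein disulfide isomerases that work with BiP. On the 3 CTR arrays Pdia4 measured 9.80, 9.61 and 9.50 (log2 signal), with 8.19, 8.24 and 8.20 under STS, 7.88, 8.50 and 7.84 under OXP and 8.54, 8.41 and 8.52 under STS+OXP. The CTR arrays were more than 1 log2 unit above every STS array. Pdia4 changed by -1.43, -1.56 and -1.15 (standard error 0.142). Pdia6 had log2 signals of 9.50, 9.42 and 9.38 in the CTR group, 8.67, 8.69 and 8.68 in the STS group, 8.15, 8.85 and 8.35 in the OXP group and 8.83, 8.74 and 8.77 in the STS+OXP group. The STS arrays of Pdia6 lay close together, and OXP replicate 2 again lay highest of its group. Pdia6 changed by -0.75, -0.99 and -0.66.

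Pdia5, another isomerase, and Erp29 were lower with STS+OXP than with STS. The CTR arrays gave 5.80, 6.12 and 5.75 for Pdia5 (log2 signal), the STS arrays 5.46, 5.50 and 5.48, the OXP arrays 4.31, 4.79 and 3.64 and the STS+OXP arrays 4.68, 4.56 and 4.80. Both drug groups were below the STS arrays, the OXP arrays varied by more than 1 log2 unit, and OXP replicate 3 was below the background of its array (3.71). Pdia5 did not pass with STS (-0.41, adjusted p = 0.225 in limma) and fell with OXP (-1.65) and STS+OXP (-1.21), and it was lower with STS+OXP than with STS (-0.80, adjusted p = 0.0125 in limma, 0.0527 without STS+OXP replicate 2). Erp29 is a member of the family without redox activity. For Erp29 the arrays gave 7.01, 6.98 and 6.97 (log2 signal, CTR), 6.28, 6.36 and 6.31 (STS), 5.31, 5.86 and 5.70 (OXP) and 5.80, 5.74 and 5.76 (STS+OXP). The groups stood in steps, CTR highest, then STS, then both drug groups. Erp29 changed by -0.67, -1.36 and -1.22, and STS+OXP differed from STS by -0.55 (adjusted p = 0.00193 in limma).

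Of the other disulfide enzymes, P4hb, the first protein disulfide isomerase described, was lower with OXP (-0.48, adjusted p = 0.0126 in limma), and the -0.28 with STS (adjusted p = 0.193 in limma) and -0.33 with STS+OXP (adjusted p = 0.0867 in limma) did not pass. Without OXP replicate 1 all 3 passed, with -0.28 for STS, -0.28 for OXP and -0.33 for STS+OXP (adjusted p = 0.0105, 0.0143 and 0.00202 in limma). Txndc5 passed with OXP (-0.63, adjusted p = 0.0108 in limma), where OXP replicate 1 (8.30) was far below replicates 2 and 3 (9.26 and 8.91), and without replicate 1 its value was -0.37 (adjusted p = 0.01085 in limma). Erp44, which retains thiol-bearing proteins in the ER, was lower with STS (-0.27) and OXP (-0.25), and Txndc11 with OXP (-0.27, adjusted p = 0.0734 without OXP replicate 2, limma) and STS+OXP (-0.31). The Pdia3 probe set stayed at background, so no level of this gene can be given.

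**Figure D3:**
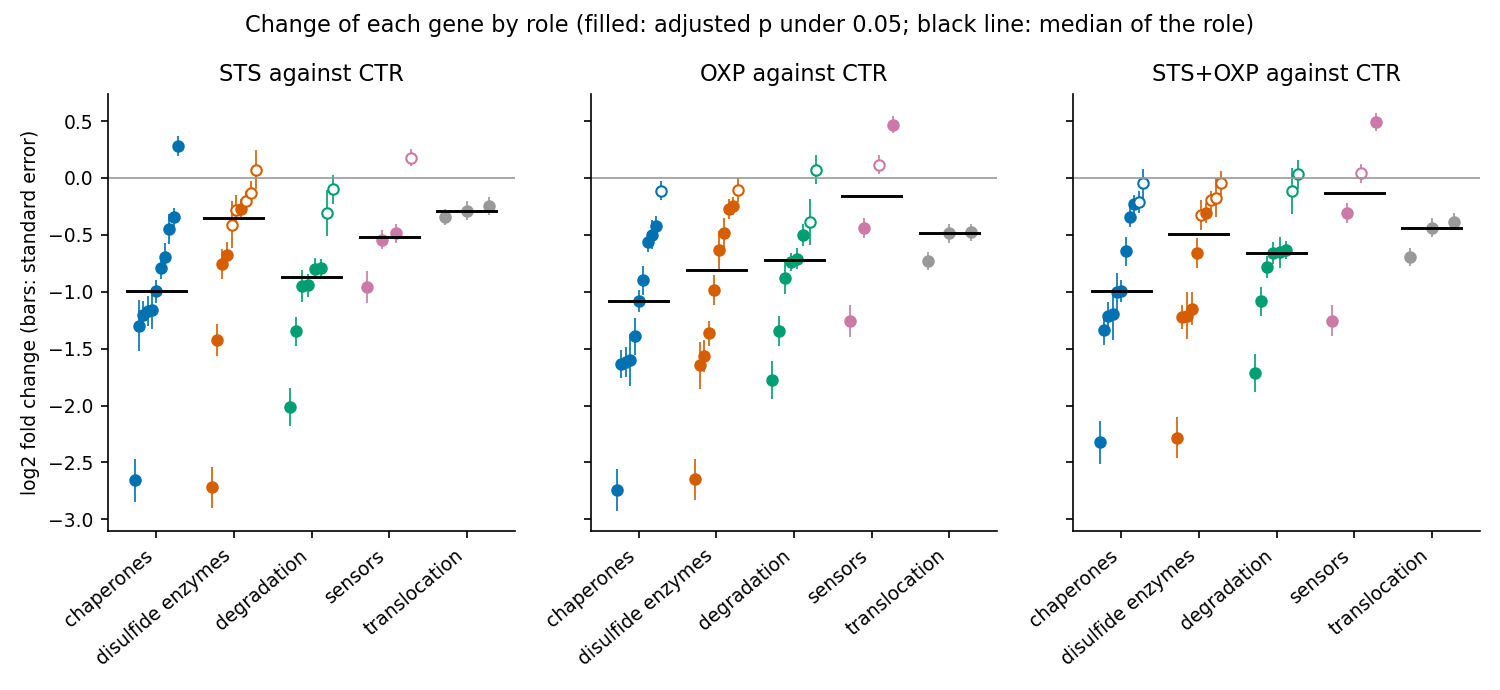
Log2 fold change against CTR of each gene (dots, with standard errors) by role, for STS, OXP and STS+OXP. Filled dots passed an adjusted p under 0.05 in limma, and black lines are the medians of the roles, which for chaperones lay at -0.998, -1.08 and -0.996. Only Sil1 (STS) and Ern1 (OXP and STS+OXP) had filled dots above 0.

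In ER-associated degradation, 6 of 8 genes were lower in each of the 3 comparisons, with medians of -0.87, -0.72 and -0.66. The genes not called were Edem2 and Derl3, and Derl3 was at background. The log2 signal of Edem2 was 7.21, 7.21 and 7.12 on the CTR arrays, 6.91, 6.89 and 6.83 on the STS arrays, 6.10, 7.12 and 7.16 on the OXP arrays and 6.95, 7.12 and 7.13 on the STS+OXP arrays. All STS arrays were below the CTR arrays, and OXP replicate 1 was far below the rest. With all arrays Edem2 changed by -0.31 with STS and -0.39 with OXP, and without OXP replicate 1 by -0.31, which passed (adjusted p = 0.00675 in limma), and -0.04, which did not.

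Herpud1 anchors the ubiquitin ligase complex of the ER membrane. On the 3 CTR arrays Herpud1 measured 9.65, 9.06 and 9.34 (log2 signal), with 7.31, 7.28 and 7.42 under STS, 7.72, 7.85 and 7.15 under OXP and 7.71, 7.52 and 7.69 under STS+OXP. The CTR arrays spread widely but lay above all 9 treated arrays. It fell to 24.8% of CTR with STS (-2.01), to 29.2% with OXP (-1.78) and to 30.5% with STS+OXP (-1.71), with a standard error of 0.167 and adjusted p of 2.44e-06, 1.73e-06 and 2.54e-06 in limma.

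Syvn1 is the ligase of that complex and Sel1l its adaptor. Syvn1 had log2 signals of 8.94, 8.72 and 8.96 in the CTR group, 7.98, 7.86 and 7.91 in the STS group, 7.60, 8.33 and 8.05 in the OXP group and 8.20, 8.21 and 8.24 in the STS+OXP group. The CTR arrays gave 8.88, 8.48 and 8.58 for Sel1l (log2 signal), the STS arrays 7.32, 7.24 and 7.35, the OXP arrays 7.18, 7.63 and 7.09 and the STS+OXP arrays 7.54, 7.53 and 7.62. In both genes the STS+OXP arrays lay above the STS arrays and below CTR. The difference from STS did not pass for Syvn1 (0.30, adjusted p = 0.161 in limma) or Sel1l (0.26, adjusted p = 0.187 in limma). Syvn1 changed by -0.95, -0.88 and -0.65 (standard error 0.139), and Sel1l by -1.35, -1.35 and -1.08 (standard error 0.129).

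Edem1 helps to hand misfolded glycoproteins to degradation. For Edem1 the arrays gave 7.77, 7.76 and 7.66 (log2 signal, CTR), 6.78, 6.76 and 6.82 (STS), 7.49, 7.12 and 7.07 (OXP) and 7.01, 6.85 and 6.98 (STS+OXP). Unlike in most of the list, OXP was the least low of the treated groups, and OXP replicate 1 was the highest treated array. Edem1 changed by -0.94, -0.50 and -0.78 (standard error 0.0993). A second probe set of Edem1 gave another order, with -0.75, -1.09 and -0.91. Derl2 is a membrane protein of the export channel. The log2 signal of Derl2 was 9.03, 8.69 and 8.64 on the CTR arrays, 8.02, 8.02 and 7.92 on the STS arrays, 8.03, 8.17 and 8.02 on the OXP arrays and 8.16, 8.15 and 8.07 on the STS+OXP arrays. Its treated groups lay close together, with changes of -0.80, -0.71 and -0.66, and those of its relative Derl1 were -0.79, -0.74 and -0.63.

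On the probe sets used, the sensors did not move as one. Xbp1 and Atf6 were lower in all 3 comparisons, Eif2ak3 was lower with STS only, and Ern1 was higher with OXP and STS+OXP. For Ern1 other probe sets gave the opposite direction with the drug, and 1 probe set of Xbp1 did not pass, as given below.

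Xbp1 encodes the transcription factor whose mRNA IRE1 splices, and the probe set does not separate the spliced from the unspliced form. On the 3 CTR arrays Xbp1 measured 9.90, 9.68 and 9.78 (log2 signal), with 9.30, 9.22 and 9.22 under STS, 9.31, 9.52 and 9.22 under OXP and 9.46, 9.53 and 9.46 under STS+OXP. The treated arrays were below CTR, by less than in most chaperones. The log2 fold changes were -0.54, -0.44 and -0.31 (standard error 0.0857; adjusted p = 0.000615, 0.00112 and 0.0134 in limma), and the call with STS+OXP was lost without CTR replicate 1 (-0.25, adjusted p = 0.0645 in limma). Of 3 other probe sets, 2 fell by like amounts (-0.58, -0.51 and -0.29, and -0.61, -0.63 and -0.36), and the dimmest, the only one specific by its name, gave -0.17, -0.14 and 0.02 and did not pass.

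Atf6 encodes the membrane-bound factor that is cut on stress. Atf6 had log2 signals of 6.60, 6.80 and 6.65 in the CTR group, 5.70, 5.68 and 5.79 in the STS group, 5.68, 5.51 and 5.08 in the OXP group and 5.55, 5.18 and 5.55 in the STS+OXP group. OXP replicate 3 and STS+OXP replicate 2 were the lowest arrays. Atf6 changed by -0.96, -1.26 and -1.25 (standard error 0.139; adjusted p = 0.000319, 7.95e-06 and 8.27e-06 in limma).

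Ern1 encodes IRE1, a kinase and endoribonuclease. The CTR arrays gave 8.19, 7.97 and 8.12 for Ern1 (log2 signal), the STS arrays 8.28, 8.20 and 8.33, the OXP arrays 8.53, 8.65 and 8.49 and the STS+OXP arrays 8.57, 8.58 and 8.60. The drug groups were above CTR and STS on every array. Ern1 rose by 0.47 with OXP and by 0.49 with STS+OXP (standard error 0.0757; adjusted p = 0.00025 and 0.00016 in limma), and the value of 0.18 with STS did not pass. This direction belongs to the brightest of 5 probe sets. Of the other sets above background, one gave 0.16, -0.34 and -0.19 with STS, OXP and STS+OXP and a dimmer one -0.37, -0.28 and -0.18, and the average of all 5 gave -0.11 and -0.04 with OXP and STS+OXP, neither of which passed.

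Eif2ak3 encodes PERK. For Eif2ak3 the arrays gave 6.79, 6.66 and 6.63 (log2 signal, CTR), 6.16, 6.15 and 6.30 (STS), 6.95, 6.82 and 6.66 (OXP) and 6.69, 6.73 and 6.78 (STS+OXP). All STS arrays were below the arrays of the other groups. It was lower with STS (-0.49, adjusted p = 0.00116 in limma), and the values of 0.12 with OXP and 0.04 with STS+OXP did not pass. STS+OXP was above STS by 0.53 (adjusted p = 0.00035 in limma). With the average of its 3 probe sets, 2 of them dim, the STS value was -0.18 (adjusted p = 0.0643 in limma).

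The 3 translocation genes were lower in all 3 comparisons with CTR, by small amounts. The log2 signal of Sec61a1 was 9.81, 9.82 and 9.70 on the CTR arrays, 9.57, 9.39 and 9.51 on the STS arrays, 9.35, 9.37 and 9.15 on the OXP arrays and 9.36, 9.42 and 9.23 on the STS+OXP arrays. On the 3 CTR arrays Sec61b measured 10.56, 10.43 and 10.42 (log2 signal), with 10.12, 10.14 and 10.12 under STS, 9.97, 10.10 and 9.90 under OXP and 10.06, 10.15 and 10.04 under STS+OXP. Sec61a1 forms the pore of the channel and Sec61b is a subunit of it, and in both the CTR arrays were above all others. The log2 fold changes were -0.29, -0.49 and -0.44 for Sec61a1, whose call with STS (adjusted p = 0.0312 in limma) was lost without any 1 of CTR replicates 1 and 2 and STS replicates 2 and 3. They were -0.34, -0.48 and -0.38 for Sec61b. Ssr1 belongs to a complex beside the channel. Ssr1 had log2 signals of 10.39, 10.46 and 10.40 in the CTR group, 10.15, 10.14 and 10.23 in the STS group, 9.69, 9.85 and 9.54 in the OXP group and 9.76, 9.67 and 9.75 in the STS+OXP group. The drug groups were below both the CTR and the STS arrays. Ssr1 changed by -0.25 with STS (adjusted p = 0.0498 in limma, lost without any 1 CTR, STS or STS+OXP array), -0.73 with OXP and -0.69 with STS+OXP, and STS+OXP differed from STS by -0.44 (adjusted p = 0.00095 in limma).

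When starvation and drug were combined, the ER genes fell by less than their single changes added together. The sum of the log2 changes of STS and OXP alone had a median of -1.48 over the 36 genes, whereas the change of STS+OXP had a median of -0.65, and the combined change was less low than the sum in 34 of 36 genes. The interaction, which is the log2 change of STS+OXP minus that sum, passed the test in 23 genes, with 23 above and 0 below 0 (28 at an unadjusted p under 0.05 in either direction, limma). Over all genes 2.53% had an interaction above 0 and 5.76% one below 0. Its median was 0.85 over the listed genes and 0.03 over all genes. Of the 25 listed genes lower with both STS and OXP, 22 had a called interaction above 0 (88.0%), against 338 of 756 such genes over the arrays (44.7%). Choosing genes in this way uses the same CTR, STS and OXP arrays as the interaction and favours values above 0. Both shares carry this effect, and their difference was not tested. By role the interaction passed in 9 of 11 chaperones, 4 of 10 disulfide enzymes, 6 of 8 degradation genes, 3 of 4 sensors and 1 of 3 translocation genes.

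The interaction was 3.08 for both Sdf2l1 (standard error 0.266, adjusted p = 9.24e-06 in limma) and Creld2 (standard error 0.254, adjusted p = 5.52e-06 in limma). It was 2.08 for Herpud1, 1.84 for Pdia4, 1.70 for Dnajc3, 1.63 for Hyou1, 1.61 for Sel1l, 1.55 for Hspa5 and 1.45 for Manf. In all 23 genes the level that the summed changes would give remained above the highest background value, which for Sdf2l1 (3.84) and Atf6 (4.47) was by less than 1 log2 unit. Genes whose interaction did not pass included Canx (0.23), Sil1 (-0.06), Ern1 (-0.15), P4hb (0.44) and Pdia5 (0.85, adjusted p = 0.104 in limma). Eif2ak3 (0.42, adjusted p = 0.0475 in limma) and Sec61b (0.44, adjusted p = 0.0184 in limma) had the highest adjusted p of the 23, and the call of Sec61b was lost without STS+OXP replicate 2 and the call of Eif2ak3 without any 1 of 11 of the 12 arrays. Without OXP replicate 1 the interaction passed in 23 genes, without OXP replicate 2 in 25 and without both in 27.

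**Figure D4:**
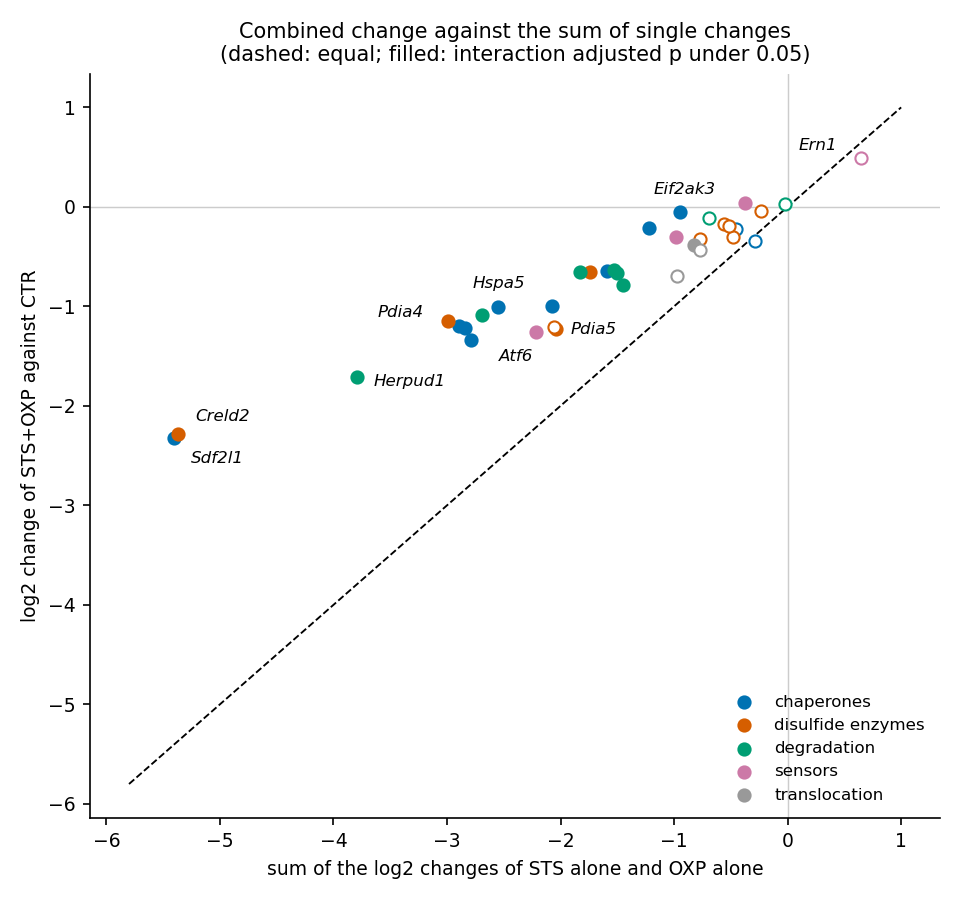
Log2 change of STS+OXP against CTR (vertical) plotted against the sum of the log2 changes of STS alone and OXP alone (horizontal) for the 36 genes, coloured by role. Of these, 34 lay above the dashed line of equality, Sdf2l1 and Creld2 farthest from it, and filled dots mark the 23 genes whose interaction passed.

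Between STS+OXP and OXP no listed gene passed the test in limma (0 higher and 0 lower, 11 at an unadjusted p under 0.05), and 0.00585% of all genes were higher and 0.00585% lower. The median difference of the listed genes was 0.15, against -0.000772 over all genes, and STS+OXP was above OXP in 31 of 36 genes. OXP replicate 2 held the highest of the 3 OXP values in 27 of 36 genes. Leaving it out lowers the OXP mean of those genes, so a shift of STS+OXP above OXP follows from the choice of array. Without that array 12 listed genes were higher with STS+OXP than with OXP and 0 were lower, against 2.38% and 4.44% of all genes. These were Calr (0.64), Creld2 (0.64), Hsp90b1 (0.43), Hspa5 (0.65), Hyou1 (0.59), Manf (0.48), Sdf2l1 (0.70), Pdia4 (0.63), Pdia5 (0.71), Pdia6 (0.53), Txndc5 (0.68) and Sel1l (0.43). Chaperones and disulfide enzymes made up 11 of the 12. Without OXP replicates 1 and 2 together, 11 genes were higher and 0 lower, against 1.96% and 2.06% of all genes, with the single remaining OXP array assumed to vary like the other groups. Without OXP replicate 1 or replicate 3 alone, 0 genes passed.

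**Figure D5:**
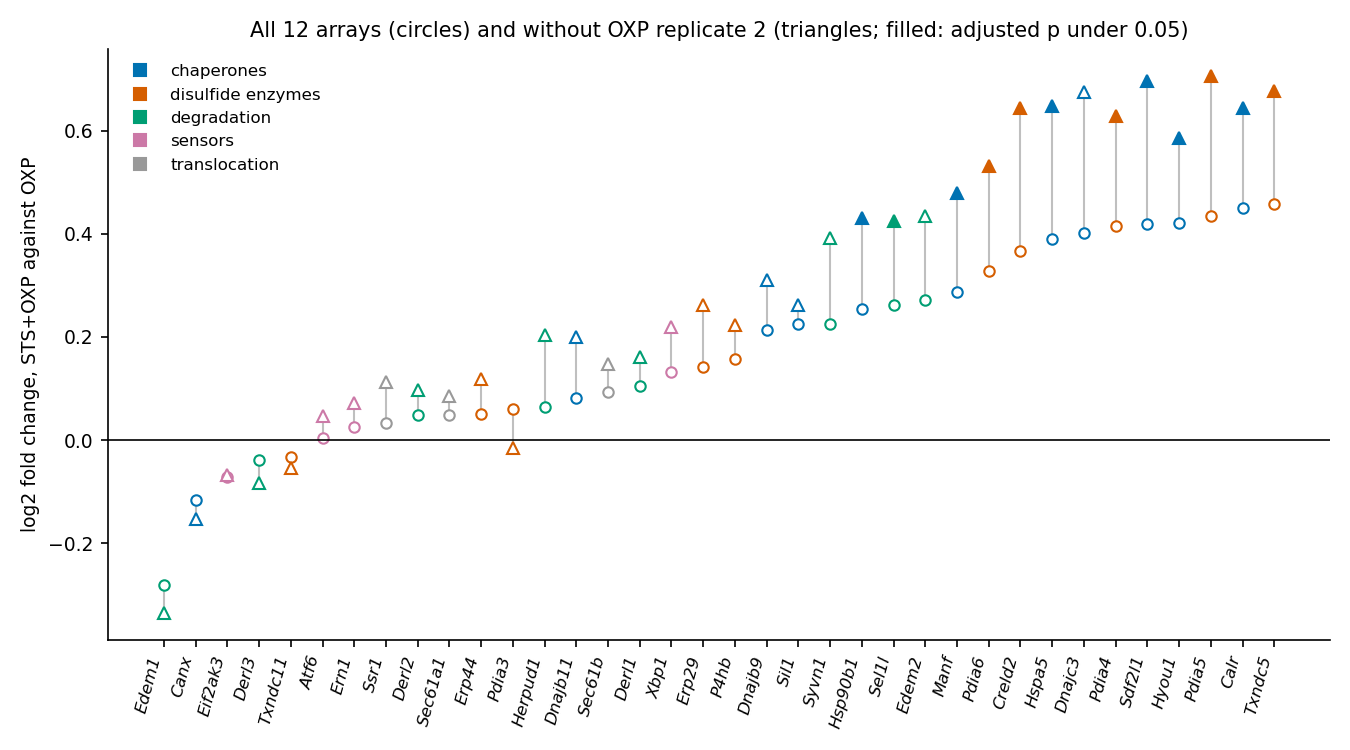
Log2 fold change of STS+OXP against OXP for the 36 genes with all arrays (circles) and without OXP replicate 2 (triangles), coloured by role and ordered by the value with all arrays. Filled triangles mark the 12 genes that passed without that array, whereas 0 passed with all arrays. OXP replicate 2 held the highest OXP value in 27 of the 36 genes, so leaving it out raises their values by the choice of array.

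Between STS+OXP and STS, 4 listed genes were higher and 4 lower, against 10.8% and 11.2% of all genes. The genes higher with STS+OXP were Dnajb9 (0.58), Eif2ak3 (0.53), Calr (0.40) and Ern1 (0.31). Those lower were Pdia5 (-0.80), Sil1 (-0.62), Erp29 (-0.55) and Ssr1 (-0.44). The median difference of all 36 listed genes was 0.11, against 0.04 over all genes. Without OXP replicate 2, which enters only the estimate of the spread here, 8 genes were higher, with Creld2, Pdia4, Sdf2l1 and Xbp1 in addition.

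Changes could also be set beside the promoter letters given above. The 11 genes with an ERSE or ERSE-II had median log2 fold changes of -0.95, -0.99 and -0.66 with STS, OXP and STS+OXP, and 10, 9 and 9 of them were lower. The 18 genes with a window that held neither had medians of -0.38, -0.48 and -0.32, and 11, 14 and 10 were lower. Both sets spanned a wide range. Sdf2l1 and Pdia4, with neither element in the window, fell about as far as Creld2 and Dnajc3, which hold an ERSE. Canx with an ERSE changed by -0.11 with OXP, and by -0.43 on a second probe set, and Derl3 was at background. Of the 18 genes, Pdia4 and Sel1l among others matched the ERSE letters with 1 mismatch. The 7 genes for which no window was used belong to neither set. They had medians of -0.79, -1.26 and -1.22 with STS, OXP and STS+OXP, and 6, 7 and 7 were lower. With OXP and STS+OXP these medians were below those of the genes with an element. The differences between the sets were not tested.

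Of 40 further single-symbol probe sets for listed genes, 30 were above background, from 19 genes. Their direction was that of the probe set used in 28 with STS, 28 with OXP and 27 with STS+OXP, and sizes differed for some genes. A second set of Hsp90b1 gave -1.09, -2.38 and -1.32, against -0.69, -0.90 and -0.64 for the set used.

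Other genes of the ER were given on 6 lists for comparison. Of their 103 measured genes, 30, 46 and 42 were lower with STS, OXP and STS+OXP and 15, 19 and 17 were higher, with medians of -0.13, -0.19 and -0.15. The shares lower were 29.1%, 44.7% and 40.8%, against 6.74%, 13.9% and 14.2% of all genes. The shares higher were 14.6%, 18.45% and 16.5%, against 9.75%, 17.5% and 16.4%, and those with OXP and STS+OXP were thus near those of all genes. The list named PERK arm had the lowest medians (-1.48, -1.34 and -0.73), with 6 of 7 measured genes lower with STS, 6 with OXP and 5 with STS+OXP. Its interaction passed above 0 in 6 genes, against 2.53% of all genes. Whether PERK itself had a part in these changes was not tested. Trib3, a pseudokinase induced by ATF4, had mean levels of 8.27 (CTR), 5.82 (STS), 5.08 (OXP) and 5.67 (STS+OXP) (log2 fold changes -2.45, -3.19 and -2.60). Chac1, a glutathione-degrading enzyme, changed by -1.48, -2.15 and -1.65. Ddit3, which encodes CHOP, changed by -1.69 with STS and -1.46 with OXP, and the -0.73 with STS+OXP did not pass (adjusted p = 0.0549 in limma). It was higher with STS+OXP than with STS by 0.96 (adjusted p = 0.0187 in limma).

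Among the other folding enzymes 5, 11 and 10 of 31 were lower with STS, OXP and STS+OXP, and 5, 4 and 4 were higher. In the same comparisons 6.74%, 13.9% and 14.2% of all genes were lower and 9.75%, 17.5% and 16.4% higher. The oxidase of the disulfide pathway, Ero1a, changed by -1.72, -1.81 and -2.14 with STS, OXP and STS+OXP. Its relative Ero1b changed by -1.43, -1.14 and -1.01, and the prolyl isomerase Fkbp11 by -1.10, -1.94 and -1.68, and all of these values passed. In glycosylation and glycan trimming 5, 11 and 10 of 14 were lower and 0 higher. The glucosidase Mogs changed by -0.27 with STS, which did not pass, and by -1.98 and -1.64 with OXP and STS+OXP. In the other genes of translocation and signal peptidase 9, 11 and 11 of 18 were lower and 1, 3 and 1 higher, the peptidase subunit Spcs3 changing by -0.53, -1.56 and -1.25.

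Genes of both directions were also found on the remaining lists, as over all genes (6.74%, 13.9% and 14.2% lower and 9.75%, 17.5% and 16.4% higher). Of 22 other degradation genes 4, 5 and 4 were lower and 4, 7 and 8 higher, with Erlin1 changing by -0.59, -1.34 and -1.28 and the lectin Os9 by 0.86 and 1.09 with OXP and STS+OXP. Of 11 other genes of ATF6 and IRE1 signalling 4, 5 and 4 were higher and 1, 2 and 2 lower. Crebrf rose by 0.68, 1.62 and 1.69, and the membrane-bound factor Creb3l1 by 0.79, 1.52 and 1.32, while Wfs1 changed by -0.82, -0.52 and -0.62.

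Cytosolic chaperones, which fold proteins outside the ER, moved in both directions. Of 24 measured, 6, 11 and 13 were lower with STS, OXP and STS+OXP and 4, 6 and 4 higher, with medians of -0.10, -0.16 and -0.34. The shares lower were 25%, 45.8% and 54.2%, against 6.74%, 13.9% and 14.2% of all genes. The shares higher were 16.7%, 25% and 16.7%, against 9.75%, 17.5% and 16.4%, and that with STS+OXP was thus near that of all genes. The interaction of these chaperones passed above 0 in 0 genes and below 0 in 3 (5 at an unadjusted p under 0.05, limma), against 2.53% and 5.76% of all genes. The inducible Hsp70 gene Hspa1b had mean levels of 4.70 (CTR), 5.83 (STS), 7.43 (OXP) and 6.63 (STS+OXP) and rose by 1.12, 2.73 and 1.93. Its levels in STS+OXP and OXP differed by -0.80, which did not pass (adjusted p = 0.257 in limma), whereas its interaction of -1.92 did (adjusted p = 0.00338 in limma). Hsp90aa1, the cytosolic relative of Hsp90b1, changed by -0.47 with STS, which did not pass, and by -0.83 and -1.21 with OXP and STS+OXP, which did.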

How the data were processed

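Total RNA of CT26 cells was measured on 12 Affymetrix mouse arrays, 3 per group. The authors deposited log2 values, normalised by RMA in R 3.02 according to the submitters' processing notes, for 45141 probe sets; of these 28898 had 1 gene symbol in the platform annotation, 551 several and 15588 none, and 104 were controls. No further normalisation was applied. For each of 17097 genes the single-symbol probe set with the highest mean over all arrays was used. Group means were fitted with limma 3.58.1 in R 4.3.3 (8 residual degrees of freedom) for 6 comparisons, which set each treatment beside CTR, the combination beside each single treatment, and the combined change beside the summed single changes (the interaction). The p-values were adjusted by Benjamini-Hochberg over all genes and called under 0.05, and standard errors are those of limma. The fit was tested on simulated data. The number of arrays limits the precision.

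The members and lists were chosen with earlier results of these data known. In each role, up to 5 genes with the largest changes among those called, and all 4 sensors, are given with each array, and up to 3 genes of each further list are named. Replicate numbers were not taken to pair arrays, since the correlation of the deviations of arrays with the same number ranged from -0.20 to 0.10 over 18 pairs. Alternatives covered normalisation, probe sets, filter, fit, replicate block, the methods' t-test, a stricter threshold and each array left out. Promoters were read from RefSeq windows (GRCm38.p6), and chromosome 18 was not searched. Nucb2 was not analysed here.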

Additional observations from a re-analysis of the deposited data

Results flagged for a closer look

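The effect of starvation differed between cells with and without oxaliplatin in 23 of the 36 genes, by the interaction term in limma, and in each of them the log2 change with STS+OXP was less low than the summed single changes. Among all genes 2.53% had an interaction above 0 and 5.76% one below 0. The largest interactions were those of Sdf2l1 (3.08), Creld2 (3.08) and Herpud1 (2.08). Among the other chaperones described by array the interaction was 1.70 for Dnajc3, 1.63 for Hyou1, 1.55 for Hspa5 and 1.45 for Manf. Among the disulfide enzymes it was 1.84 for Pdia4, 1.08 for Pdia6 and 0.82 for Erp29. The degradation genes Sel1l, Syvn1, Derl2 and Edem1 had interactions of 1.61, 1.18, 0.84 and 0.66. Those of the sensors Atf6, Xbp1 and Eif2ak3 were 0.96, 0.68 and 0.42, and that of the translocation gene Sec61b was 0.44. The call of Xbp1 was lost with specific probe sets only (0.33, adjusted p = 0.154 in limma). The call of Eif2ak3 was lost with the average of its probe sets (0.15, adjusted p = 0.361 in limma) and in most fits with 1 array left out. The call of Sec61b was lost without STS+OXP replicate 2.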

How the results depend on the processing

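The number of the 36 genes called in each direction remained within 1.5 times the reported count in most of the alternatives run, with the following exceptions. The single gene higher with STS (Sil1) was called in 0 genes with cyclic loess, with a trend and robust fit, with the replicate block, with the methods' t-test and at an adjusted p under 0.01. With the average of all probe sets, 0 genes were higher with OXP and 0 with STS+OXP, since Ern1 changed direction (-0.11 with OXP and -0.0439 with STS+OXP). Restricted to specific probe sets, Xbp1 changed direction with STS+OXP (0.0166). The methods' t-test after Benjamini-Hochberg called 0 genes higher and 12 lower with STS, 0 and 1 with OXP, 0 and 21 with STS+OXP, 0 and 0 between STS+OXP and OXP and 5 and 3 between STS+OXP and STS. At an unadjusted p under 0.05 it called 30, 24 and 29 genes lower and 0, 1 and 1 higher with STS, OXP and STS+OXP. Between STS+OXP and OXP, 12 genes were higher without OXP replicate 2 and 11 without OXP replicates 1 and 2. Between STS+OXP and STS, 9 genes were higher with array quality weights, 11 with a fit restricted to the arrays of both groups and 10 without OXP replicates 1 and 2. Leaving out 1 array at a time gave 0 to 1 genes higher and 23 to 29 lower with STS, 1 to 1 and 28 to 30 with OXP, and 1 to 1 and 24 to 29 with STS+OXP. It gave 0 to 12 higher and 0 to 0 lower between STS+OXP and OXP, 3 to 8 and 3 to 4 between STS+OXP and STS, and 21 to 25 and 0 to 0 for the interaction. With the replicate block, although the numbers do not pair the arrays, 0 genes were higher and 26 lower with STS, 1 and 30 with OXP and 1 and 25 with STS+OXP, 4 and 4 differed between STS+OXP and STS, and 22 interactions were above 0. The interaction was not run with the t-test or with only the arrays of 2 groups. Of 85 calls of the 22 genes given by array, 13 were lost and 2 others turned in at least 1 alternative other than the t-test. Genes at background, Pdia3 and Derl3, allow no statement on their level, and the cause of these differences was not tested.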
